A study of Mus musculus with 4 samples.

Results

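The 10 genes described here, Fam169b, Chsy1, Fan1, Snrpa1, Tarsl2, Lrrk1, Trpm1, Mtmr10, Asb7 and Adamts17, are genes near Klf13 on mouse chromosome 7 chosen by the difference of their array values between Klf13 knockout and wild-type cells. They are 10 of 19938 genes measured. Since this contrast selected them, their differences are a description and carry no test. Transcript levels were measured in naive CD8 T cells from the spleen, isolated by cell sorting, of Klf13 knockout mice (KO, 2 arrays) and wild-type mice (WT, 2 arrays), all BALB/c and otherwise untreated as far as the labels say. The platform was a 1-colour Affymetrix array, with 1 array a sample, and the values are log2 probe-set values, so a difference of 1 is a doubling. The sources used here do not say which part of Klf13 was deleted, in which stem cells the allele was made, how often it was backcrossed, how old the mice were or whether each array is a separate animal.

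Klf13 encodes a transcription factor with zinc fingers, one of the Krüppel-like factors, which binds GC-rich and CACCC-type DNA and activates the chemokine gene Ccl5 in T cells. When a gene is altered in embryonic stem cells, the chromosome on both sides of it comes from the stem cell strain, and backcrossing replaces that stretch piece by piece. Genes close to the altered one therefore travel with it. An allele that differs from BALB/c there can change a transcript's level, or can sit under an array probe and change how well the probe binds.

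The promoter windows of 3 of the genes are shown because they stand at the extremes of the list: Fam169b had the largest negative difference, Mtmr10 the largest positive one, and Tarsl2 has the most GC boxes of the list's windows. Sequences are RefSeq's for the reference strain C57BL/6J (GRCm38.p6), each running 5′ to 3′ along the gene from 250 bases before the start to 50 after it. Capitals mark the Krüppel-type motif CACCC, the related motif CTCCC and the GC box GGGCGG wherever they occur on either strand.
Fam169b, first start, chr7:68273589-68273888, plus strand: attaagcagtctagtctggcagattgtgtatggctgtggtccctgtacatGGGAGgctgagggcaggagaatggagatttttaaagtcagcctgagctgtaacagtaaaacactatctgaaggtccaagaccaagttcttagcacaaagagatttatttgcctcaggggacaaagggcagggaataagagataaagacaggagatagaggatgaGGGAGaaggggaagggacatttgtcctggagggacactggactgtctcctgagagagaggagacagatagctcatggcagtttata
Fam169b, second start, chr7:68275734-68276033, plus strand: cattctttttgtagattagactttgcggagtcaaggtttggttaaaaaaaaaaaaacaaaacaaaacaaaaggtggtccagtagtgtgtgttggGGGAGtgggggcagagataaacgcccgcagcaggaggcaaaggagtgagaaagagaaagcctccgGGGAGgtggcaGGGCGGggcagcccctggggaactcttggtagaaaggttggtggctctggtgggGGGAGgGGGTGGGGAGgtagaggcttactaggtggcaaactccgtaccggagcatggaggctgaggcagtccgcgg
Tarsl2, chr7:65644648-65644947, plus strand: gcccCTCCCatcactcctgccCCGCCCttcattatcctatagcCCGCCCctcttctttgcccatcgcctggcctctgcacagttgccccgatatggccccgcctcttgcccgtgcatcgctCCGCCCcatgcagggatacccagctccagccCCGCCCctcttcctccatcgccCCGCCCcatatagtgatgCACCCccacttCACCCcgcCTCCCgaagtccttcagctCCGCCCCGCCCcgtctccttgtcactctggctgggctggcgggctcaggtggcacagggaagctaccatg
Mtmr10, chr7:64287420-64287719, plus strand: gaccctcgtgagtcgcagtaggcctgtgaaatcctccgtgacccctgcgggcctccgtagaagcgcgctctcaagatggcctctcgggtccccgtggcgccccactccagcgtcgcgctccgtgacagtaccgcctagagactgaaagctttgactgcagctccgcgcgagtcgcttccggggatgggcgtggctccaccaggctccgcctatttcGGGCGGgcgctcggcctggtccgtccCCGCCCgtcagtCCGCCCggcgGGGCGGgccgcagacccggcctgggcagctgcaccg
The first Fam169b window held no CpG and was 47.0% G or C, whereas the Mtmr10 window held 36 CpG at 71.0%, and the medians of all windows were 7 CpG and 52.7%. The Tarsl2 window held 7 GC boxes (GGGCGG), some of which share bases, and the Mtmr10 window 4.

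All 10 genes had at least 1 window, 12 in all. CACCC was present in a window of 7 of the 10, CTCCC in 6 and GGGCGG in 7, where single windows of 300 bases held them in 57.5%, 71.0% and 35.7% of all 32851 windows. Fan1, which was lower in KO cells, and Adamts17, which was higher, had none of the 3 motifs. All 3 were found for 5 genes, of which Tarsl2, Snrpa1 and Fam169b were lower in KO cells and Lrrk1 and Asb7 higher. CTCCC and CACCC can share bases with each other and with the GC box. A match is a stretch of letters and not a measured binding site.

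Klf13 itself had 5.46 and 5.43 in the KO arrays, against 7.01 and 7.15 in the WT arrays. It was read by 1 probe set, whose place relative to the deletion is not known here, and the KO minus WT difference was -1.63. Among the genes measured, the 10 listed genes all lay on 1 side of Klf13. Trpm1 is the nearest measured gene on that side and Fam169b stands at position 30. Of the 10, 5 were lower in the KO arrays, by 0.58 to 1.26 on the log2 scale, and 5 were higher, by 0.29 to 0.60. In all 10 the KO and WT arrays did not overlap, a separation that 47.6% of all genes showed with 2 arrays a group (24.4% higher and 23.2% lower in KO). The smallest difference was 1.23-fold and the largest 2.39-fold.

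**Figure D1:**
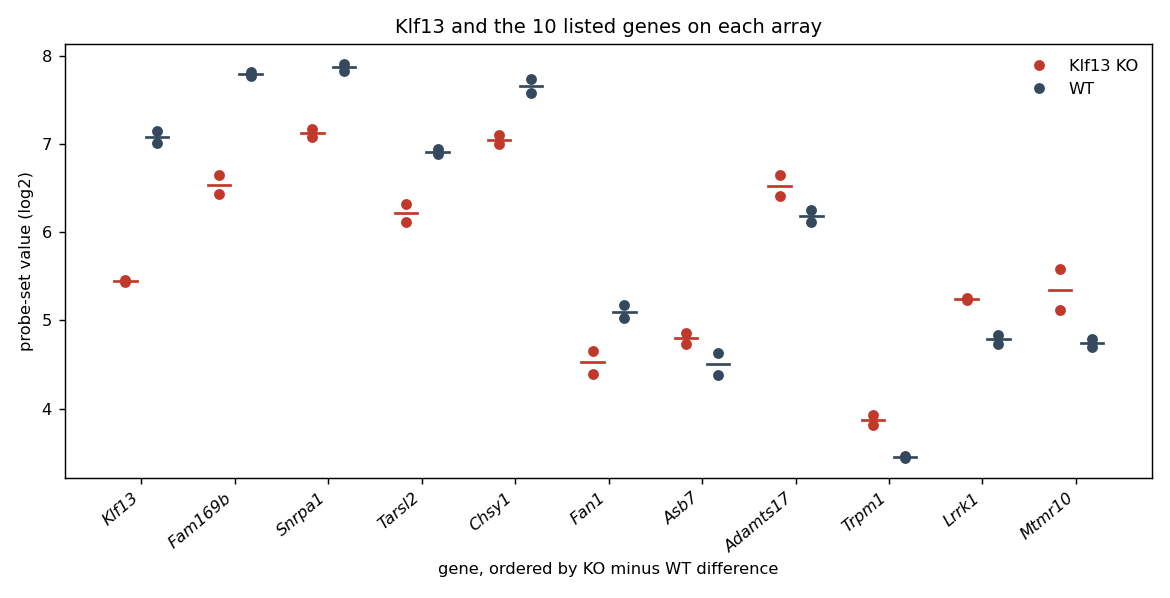
Log2 probe-set values (y axis) of Klf13 and the 10 listed genes (x axis, ordered by difference) on each of the 4 arrays, KO at the left of each pair and WT at the right; points are arrays and short bars are group means. Both KO points of Fam169b lie 1.13 or more below both WT points, whereas the groups of Asb7 lie 0.11 apart.

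Of the 10 genes, 7 passed the limma test at an adjusted p under 0.05 (Benjamini-Hochberg over all genes), where 2.25% of all genes did; since the list was drawn from this contrast, nothing is read from that share. The lower genes were 5 of the 7, beside 1.05% of all genes called lower. Trpm1 and Lrrk1 made up the other 2, beside 1.19% called higher. Trpm1 passed in 3 of 10 alternatives and in none that left out an array, and Lrrk1 passed in 7 of 11, failing after further quantile normalization, without KO replicate 1 and without either WT array. Mtmr10, not called here, also passed in 7 of 11. Chsy1 failed without KO replicate 1 and without WT replicate 2, and Fan1 after further quantile normalization, without KO replicate 1 and without WT replicate 1. Trpm1 was the called gene nearest to the threshold, and Mtmr10 lay just outside it; Adamts17 and Asb7 lay further out. The count was 4 without KO replicate 1 and 4 after a further quantile normalization. In 7 of the 10 genes the gap between the groups exceeded the larger difference within a pair of arrays, as it did in 3272 of all 19938 genes. In Mtmr10, Asb7 and Adamts17 it did not. The list was drawn from this contrast, so nothing is read from that count either.

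Fam169b, whose function is little known, had 6.43 and 6.65 in the KO arrays, against 7.77 and 7.81 in the WT arrays. This was a 2.39-fold lower value (difference -1.26), with a gap of 1.13 between the groups. Snrpa1 encodes a core protein of the U2 small nuclear ribonucleoprotein, the particle that recognises the branch point of introns. It had 7.07 and 7.16 in the KO arrays, against 7.82 and 7.91 in the WT arrays. The arrays of each pair differed by no more than 0.09, and the groups lay 0.66 apart, a 1.68-fold lower value in KO cells.

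Tarsl2, also called Tars3, encodes a threonyl-tRNA synthetase, an enzyme that loads threonine onto its tRNA. Its values were 6.12 and 6.32 in the KO arrays, against 6.88 and 6.94 in the WT arrays, with a difference of -0.69. Chsy1, a glycosyltransferase that lengthens chondroitin sulfate chains on proteoglycans, had 6.999 and 7.095 in KO cells, against 7.58 and 7.73 in WT cells. That is a difference of -0.61, or 1.52-fold. Fan1, a nuclease that works with the Fanconi anaemia proteins on DNA crosslinks, had 4.39 and 4.65 in KO cells, against 5.17 and 5.03 in WT cells. Its gap of 0.38 was the smallest of the 5 lower genes. In all 5 lower genes KO replicate 2 lay above KO replicate 1 and so nearer to the WT arrays, whereas among the 5 higher genes KO replicate 2 was the higher KO array in 2.

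Mtmr10, a member of the myotubularin family of lipid phosphatases that is thought to lack catalytic activity, had 5.11 and 5.58 in the KO arrays, against 4.79 and 4.70 in the WT arrays. The difference of 0.60 was the largest of the 5, and the KO arrays themselves differed by 0.47, more than the gap of 0.32 between the groups. Without KO replicate 1 the difference was 0.84, and without KO replicate 2 it was 0.37. Lrrk1, a protein kinase known for its part in bone resorption by osteoclasts, had 5.25 and 5.23 in KO cells, against 4.74 and 4.83 in WT cells. Its 2 KO arrays were the closest pair of KO values in the list (SD 0.02), and the difference was 0.46.

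Trpm1, a cation channel of melanocytes and of retinal bipolar cells, had 3.82 and 3.93 in KO cells, against 3.46 and 3.44 in WT cells (difference 0.42). No detection calls were used, so whether T cells hold Trpm1 transcript at these values is not known here. Of 7 melanocyte markers, 0 passed the limma test in either direction and 1 had an unadjusted p under 0.05, where 16.6% of all genes had one. Their summed linear level was 95.02 to 95.30 in KO arrays and 91.6 to 93.1 in WT arrays. An intron of Trpm1 holds the gene of the microRNA miR-211, and a separate probe set of the array is paired with Mir211. Whether that probe set reads the mature microRNA or a longer transcript was not tested. The mature 5p strand is shown because it is another product of the Trpm1 locus, with the seed (bases 2 to 8) in capitals. A mature 3p strand is also known.
mmu-miR-211-5p, RefSeq GRCm38.p6, chr7:64205831-64205852, plus strand: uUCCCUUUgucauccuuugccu
Mir211 had 4.68 and 4.41 in KO cells, against 4.51 and 4.54 in WT cells, so its groups overlapped where those of Trpm1 did not (difference 0.02, limma adjusted p = 0.939).

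Asb7, a substrate receptor of cullin 5 ubiquitin ligases, had 4.86 and 4.74 in KO cells, against 4.63 and 4.38 in WT cells. With a difference of 0.29 it had the smallest difference of the list. Adamts17, a secreted metalloprotease, had 6.65 and 6.41 in KO cells, against 6.11 and 6.24 in WT cells (difference 0.35). Both genes separated the groups by less than the arrays of a pair differed.

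These 2 genes were also the ones with more than 1 probe set paired with their symbol alone, so that agreement between probe sets could be looked at. The other 8, and Klf13, were read by 1 probe set each, and no probe set was shared between one of these genes and another symbol. The second probe set of Asb7 had 4.48 and 4.62 in KO cells, against 4.50 and 4.42 in WT cells, a difference of 0.09 with overlapping groups. Both Asb7 probe sets were thus higher on average in KO cells, with sizes 0.20 apart.

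Adamts17 had 5 probe sets, numbered here by their mean over the arrays, and the KO mean was above the WT mean in each. Their differences were 0.35, 0.16, 0.32, 0.03 and 0.27. The KO and WT arrays did not overlap in probe sets 1, 3 and 5 and overlapped in probe sets 2 and 4, where 47.6% of all genes showed no overlap. The means of probe sets 1 to 5 over the 4 arrays were 6.35, 5.99, 3.88, 3.37 and 3.28, so probe sets 3 and 5 were much dimmer than probe set 1. Probe set 4 had 3.41 and 3.36 in KO cells, against 3.54 and 3.17 in WT cells, so that its WT arrays enclosed both KO arrays. Over all genes with more than 1 single-gene probe set, 692 of 999 (69.3%) had all their differences of one sign, and of the 21 genes with 5 probe sets 13 did (61.9%). The spread of differences within a gene was 0.32 for Adamts17 and 0.20 for Asb7, against a median of 0.09 over the 999 genes, 0.12 over the 21 genes with 5 probe sets and 0.40 over the 20 called genes with more than 1 probe set. Of those 20, 17 had all differences of one sign (85.0%).

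**Figure D2:**
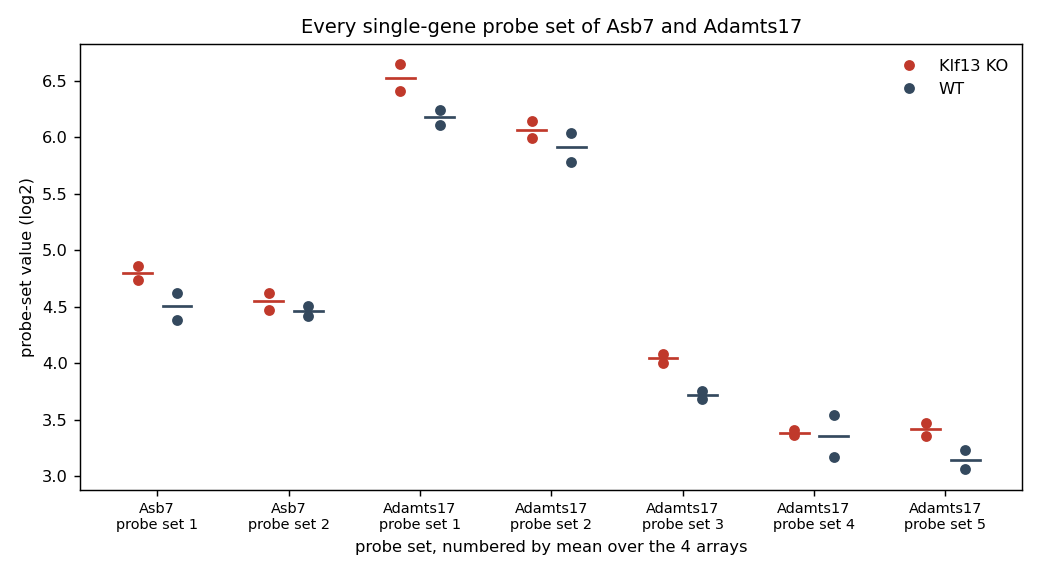
Log2 values (y axis) of every probe set paired with Asb7 alone (2) or Adamts17 alone (5) on each array (x axis, numbered within a gene by mean level), KO at the left and WT at the right; points are arrays and bars are means. The KO mean is above the WT mean in all 7 probe sets, and the groups overlap in probe set 2 of Asb7 and in probe sets 2 and 4 of Adamts17.

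The 5 lower genes each rest on a single probe set, as do Trpm1, Lrrk1 and Mtmr10 among the higher ones. For these 8 genes, for Asb7 and Adamts17 and for Klf13 a changed transcript level and a changed binding of the probes cannot be told apart from these values. The reason is that the chromosome around Klf13 differs between the groups, if at all, in the same way as the genotype. Probe positions were not used here.

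In gene order the lower and higher genes were mixed. Trpm1 and Mtmr10, higher in KO cells, stood at positions 1 and 3 from Klf13, followed at once by Fan1 at position 4, which was lower. Tarsl2, Snrpa1 and Chsy1, all lower, were at positions 11, 14 and 16, and Lrrk1, Asb7 and Adamts17, all higher, at 17, 19 and 22. Chsy1 and Lrrk1 were next to each other and differed by -0.61 and 0.46. Asb7 starts 328 bases from Lins1, which runs the other way. Lins1 had 5.05 and 5.21 in KO cells, against 5.33 and 5.25 in WT cells, a difference of -0.16 that did not pass (limma adjusted p = 0.461), beside 0.29 for Asb7.

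**Figure D3:**
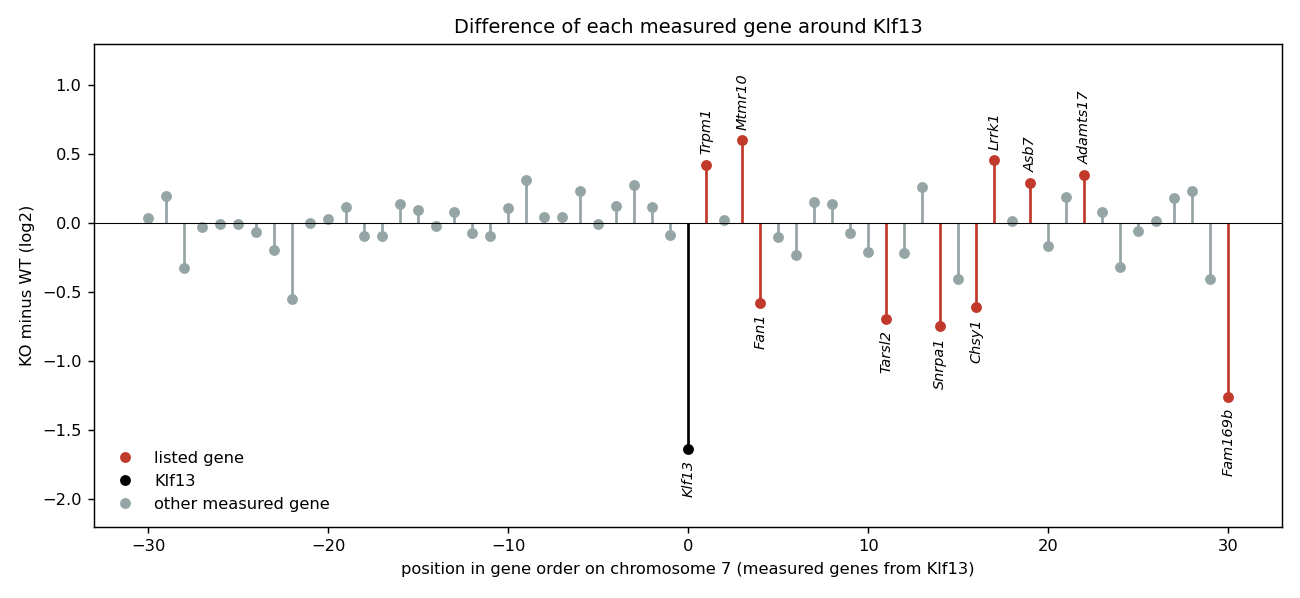
KO minus WT difference on the log2 scale (y axis) of Klf13 (black), the 10 listed genes (red) and the 50 other measured genes (grey) by position in gene order from Klf13 (x axis, 30 measured genes on each side). The listed genes all stand at positive positions, 5 below and 5 above 0.

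Between Klf13 and Fam169b, 20 further genes were measured that are not on the list, and the 30 nearest measured genes on the other side of Klf13 hold none of it. These 20 are what remained after the changed genes had been picked, so their counts too are a description. Of the 20, 0 passed the limma test at an adjusted p under 0.05, 3 had an unadjusted p under 0.01 and 5 one under 0.05, where 6.51% and 16.6% of all genes did. Those 3 were Pgpep1l (difference -0.40, limma adjusted p = 0.0734), which is the direct neighbour of Fam169b, Selenos, a selenoprotein of the endoplasmic reticulum (-0.41, limma adjusted p = 0.109), and the transcription factor gene Mef2a (-0.32, limma adjusted p = 0.153). Selenos lies between Snrpa1 and Chsy1 in the order and had 5.41 and 5.40 in KO cells, against 5.66 and 5.96 in WT cells, so that the 3 genes at positions 14, 15 and 16 were each lower in both KO arrays.

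The median size of the difference, without its sign, was 0.17 over these 20 genes, 0.09 over the 30 on the other side and 0.10 over all genes. On the other side 1 of the 30 genes passed the test: Gas2, which encodes a protein that binds actin filaments and microtubules. It had 4.08 and 3.91 in KO cells, against 4.56 and 4.53 in WT cells (difference -0.55, SE 0.10, limma adjusted p = 0.0193), and its adjusted p was 0.0821 without WT replicate 1. Atp10a, a phospholipid flippase (0.31, limma adjusted p = 0.141), and Prmt3, an arginine methyltransferase (-0.32, limma adjusted p = 0.146), came next by p. The direct neighbour of Klf13 on that side, Otud7a, a deubiquitinase gene, differed by -0.08 with overlapping groups. Of the 100 nearest measured genes on that side 5 passed and 13 had an unadjusted p under 0.01, where 2.25% and 6.51% of all genes did. Of the 90 unlisted ones among the nearest 100 on the listed side 0 passed and 8 had an unadjusted p under 0.01. The 10 listed genes taken out there hold 7 that passed, so these counts do not compare the sides.

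Genes that work with the listed ones, or are related to them, were read from the same fit. Over all 19938 genes, 16.6% had an unadjusted limma p under 0.05, and 9157 had a negative difference. Of 21 other measured genes of chondroitin and dermatan sulfate synthesis, Ust, which adds sulfate to the uronic acid of the chain, fell and the others did not pass. An unadjusted limma p under 0.01 was found for 4, where 6.51% of all genes had one, and 5 had one under 0.05. Besides Ust, the 4 held Chst11 (-0.41), Xylt1 (-0.38) and Dse (-0.32), all lower, while 12 of the 21 differences were positive. Ust had 4.76 and 5.01 in KO cells, against 5.89 and 5.75 in WT cells (difference -0.94, limma adjusted p = 0.00217). Chsy3, the paralog of Chsy1, differed by 0.002 (limma adjusted p = 0.994). The median of this list was 0.02, beside 0.02 over all genes, and it turned to -0.03 after a further quantile normalization.

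Of 24 other genes of the Fanconi anaemia and crosslink repair list, 0 rose and 0 fell by the limma test. An unadjusted p under 0.05 was found for 7, where 16.6% of all genes had one. Their KO mean was below the WT mean in 22, with a median of -0.20, where 9157 of all 19938 genes had a negative difference. KO replicate 1 stood apart, with a mean over the list of 5.87, against 6.06 in KO replicate 2 and 6.12 and 6.14 in the WT arrays, and without it the median was -0.10. Eme1, a nuclease subunit, had the smallest p (-0.28, limma adjusted p = 0.177). Of 20 other U1 and U2 snRNP genes, again 0 passed the limma test, 9 had an unadjusted p under 0.05 and 19 had a negative difference. Their median of -0.14 was -0.08 after further quantile normalization. It was -0.23 after median centring, which took the median of all genes to -0.07. Sf3b6, a U2 protein near the branch point, had the smallest p (-0.36, limma adjusted p = 0.112), and Snrpb2, the partner of the Snrpa1 protein in the particle, differed by -0.25 (limma adjusted p = 0.225). Snrpa1 itself differed by -0.75.

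Of 18 other cytosolic aminoacyl-tRNA synthetase genes, 0 passed the limma test and 2 had an unadjusted p under 0.05, where 16.6% of all genes did. The median was -0.13 and 16 differences were negative. The list's median was -0.06 after further quantile normalization and -0.22 after median centring, where the median of all genes was -0.07. It was -0.07 without KO replicate 1, which had the lowest mean over this list of the 4 arrays (8.45, against 8.58 in KO replicate 2 and 8.64 and 8.63 in the WT arrays). Tars, the main cytosolic threonyl-tRNA synthetase and a close relative of Tarsl2, had 7.22 and 7.50 in KO cells, against 7.80 and 7.68 in WT cells (-0.38, limma adjusted p = 0.129). The mitochondrial enzyme gene Tars2 differed by -0.14 (limma adjusted p = 0.576). Whether probes of Tarsl2 bind Tars transcripts was not tested.

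For the families of the higher genes the limma test called 1 gene, and that one was lower. Of 17 other ADAMTS proteases, Adamts6 fell (4.78 and 5.10 in KO cells, against 5.46 and 5.74 in WT cells; a difference of -0.66, limma adjusted p = 0.0337), a call lost after further quantile normalization, without KO replicate 1 and without WT replicate 2, with an adjusted p of up to 0.167 across the alternatives. Adamts19, the closest relative of Adamts17, differed by -0.004 (limma adjusted p = 0.989). Of 21 other genes of the SOCS box and cullin 5 list 0 passed the limma test and 1 had an unadjusted p under 0.05; that was Asb2 (0.34, limma adjusted p = 0.189), and Asb13 differed by -0.10. Among 13 other myotubularins 0 passed the limma test, and Sbf2, the 1 with an unadjusted p under 0.05, differed by 0.31 (limma adjusted p = 0.194), while Mtmr11 and Mtmr12, which like Mtmr10 are thought to be inactive, differed by -0.04 and -0.13. The same held for 7 other TRPM channels, where Trpm3 was the 1 with an unadjusted p under 0.05 (0.27, limma adjusted p = 0.244). Lrrk2, the paralog of Lrrk1, differed by 0.14 (limma adjusted p = 0.504), and Fam169a, the paralog of Fam169b, by 0.10 (limma adjusted p = 0.738).

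The genes with the array profile nearest to that of Fam169b, by Euclidean distance between deviations from each gene's mean over 4 arrays, were Snord33 (distance 0.08), Samd3 (0.10) and Cxcr5 (0.13). Snord33, a small nucleolar RNA gene, is also on chromosome 7 and had 6.97 and 7.20 in KO cells, against 8.41 and 8.34 in WT cells. Samd3 is on chromosome 10 and Cxcr5, the follicular homing receptor gene, on chromosome 9. Nearest to Mtmr10 were Btbd3 (0.088), 4931406C07Rik (0.089) and Pygl, liver glycogen phosphorylase (0.090), on chromosomes 2, 9 and 12. In these 3 genes, as in Mtmr10, KO replicate 2 was the highest of the arrays, which follows from choosing them by their profile.

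The 4 arrays correlated across genes at 0.994 to 0.998, and the median of the genes tested was 4.71 and 4.66 in the KO arrays and 4.59 and 4.61 in the WT arrays. Cd8a had 11.1 and 11.1 in KO cells, against 11.3 and 11.1 in WT cells. Of 8 CD8 T cell markers 0 passed the limma test and 1 had an unadjusted p under 0.05, where 16.6% of all genes had one. The same counts held for 4 CD4 T cell markers. Some markers of other blood cells were higher in KO cells by the limma test, which called 1.19% of all genes higher. Of 10 neutrophil markers 4 rose, with a summed linear level over the 10 of 913.0 to 997.3 in KO arrays and 288.2 to 336.8 in WT arrays. Of 8 myeloid markers 4 rose (summed level 185.7 to 206.9 in KO arrays and 128.6 to 129.7 in WT arrays), and of 7 B cell markers 2 rose (952.6 to 956.3 in KO arrays and 597.0 to 613.1 in WT arrays). The B cell sum is largely that of its brightest gene, Ighm (9.34 and 9.28 in KO cells, against 8.51 and 8.51 in WT cells). Cd79a, Cd79b, Ms4a1, Pax5 and Cd22 did not pass, with differences of 0.32, 0.51, 0.01, 0.24 and -0.05. None of the neutrophil, myeloid and B cell markers fell by the test. The other neutrophil markers, S100a8, S100a9, Ngp, Camp, Ly6g and Csf3r, did not pass. Their means were 2.59 to 4.02 in KO cells and 2.71 to 3.81 in WT cells, and Ly6g had a negative difference (-0.12). The genes that rose were Mpo, Elane, Prtn3 and Ctsg of the neutrophil list, Lyz2, Csf1r, Mpeg1 and Tyrobp of the myeloid list and Ighm and Cd74 of the B cell list. Which cells these transcripts came from was not tested. Of these genes, Mpo, Elane, Prtn3, Ctsg, Lyz2 and Ighm passed in all 11 alternatives. Csf1r failed without WT replicate 1 and Mpeg1 after further quantile normalization. Cd74 failed without KO replicate 1 and without either WT array, and Tyrobp after quantile normalization and without KO replicate 1, KO replicate 2 or WT replicate 1. In bulk samples more cells of a type and more RNA per cell cannot be told apart, and the part of these cells in the values of the 5 higher genes was not tested.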

How the data were processed

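Total RNA (200 ng, integrity number above 9), per the labels' protocols, was amplified from random primers by a whole-transcript method and labelled with biotin. The authors deposited log2 values per probe set (range 1.34 to 13.5); the submitters' processing notes name RMA and Partek without versions. RMA equalises the arrays' distributions and compresses the folds of dim genes, and levels of different genes are not comparable. Of 35556 probe sets, GEO's platform annotation pairs 21789 with 1 gene symbol, and 21698 of these matched RefSeq (GRCm38.p6) by gene identifier. The files name no build, so RefSeq gave names, neighbour order and sequences; no position of a probe set was used.

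Where a gene had several single-gene probe sets, the brightest by mean over the 4 arrays was used, without a filter on level. KO was compared with WT in limma 3.58.1 (R 4.3.3; a moderated linear model with a genotype term, two-sided, adjusted by Benjamini-Hochberg over 19938 genes, threshold 0.05), tested first on simulated data. Since nothing says that samples of a group were separate animals, p-values may reflect technical spread alone, and the number of arrays limits their precision. The listed genes, gene lists and tests were chosen with earlier results of these data known. Named were Klf13, the listed genes, called unlisted neighbours and the 3 of smallest p on each side, the nearest profiles, paralogs, and of each family the called members or the one of smallest p; Mir211, Lins1, Otud7a and the cell markers were added after their values were seen. Alternatives were other ways to combine probe sets, the brighter 9969 genes, further quantile normalization, median centring, a variance trend, the replicate number as a block and each array left out; calls at an unadjusted p under 0.01 for unlisted neighbours were added after seeing the data.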

Additional observations from a re-analysis of the deposited data

How the results depend on the processing

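Over 120 recomputed differences of Klf13 and the 10 listed genes, 0 changed sign and 115 stayed within 1 SD of the reported value. The 5 that moved further were of Snrpa1, Lrrk1 and Trpm1, under further quantile normalization or median centring. Most of the 120 could not have come out otherwise. Settings that change only the variance or the genes fitted return the same difference. Leaving out an array of groups that do not overlap can neither turn the sign nor move the difference by 1 SD. These counts are therefore no measure of stability. Of the listed genes, 3 passed the limma test in every setting run (Fam169b, Snrpa1 and Tarsl2), and Asb7 passed in 0 of the 11 alternatives. Against the reported 7 listed genes, 448 genes in all and 1 unlisted neighbour, further quantile normalization gave 4 listed genes. Median centring gave 1088 genes in all and 5 unlisted neighbours, a variance trend with robust moderation 831 and 2, and the replicate block 1187 and 3, with 9 listed genes. The replicate numbers did not pair the samples (correlation of same-numbered deviations over genes 0.007), so the block is given here only. With 1 array left out, where the lone array is assumed to vary like the other pair, there were 4 to 7 listed genes, 264 to 1536 genes in all and 0 to 3 unlisted neighbours; the lowest total came without KO replicate 1, the highest without KO replicate 2, and without WT replicate 1 it was 277. Gas2, the unlisted neighbour that passed, was not among the brighter 9969 genes, where 0 of 20 unlisted neighbours passed. The nearest 100 genes on each side gave 5 unlisted neighbours. At an unadjusted p under 0.01 there were 6, and 4 without KO replicate 1 (both chosen after seeing the data). Median centring subtracts a fixed value from each array, so it moved the differences of all genes by the same amount. The median difference of all genes went from 0.02 to -0.07 with it. What else moved the counts was not tested. The medians of the chondroitin, ADAMTS and myotubularin lists turned sign after further quantile normalization, those of the chondroitin, ADAMTS, SOCS box and melanocyte lists after median centring, and, with 1 array left out, those of the chondroitin list (without KO replicate 2 or WT replicate 2), the myotubularins and TRPM channels (without KO replicate 1) and the ADAMTS list (without WT replicate 2). No probe set paired with several symbols included a listed gene, so that alternative gave no value.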
